A study of Mus musculus with 6 samples.

Results

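The genes described here are 50 genes of DNA replication and S phase, the part of the cell cycle in which the genome is copied. They were taken as a list of symbols and matched to the mouse Ensembl gene IDs of the count table through GENCODE M21. All 50 were found among the 49315 genes of the table, each under 1 gene ID, and all 50 passed the filter on low counts, which left 18079 genes to test. The rule is a list of names and sets no threshold on expression, but the list was drawn up with earlier results of these data known. The lowest count of any of them in any library was 257 reads, so each was measured in every library.

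The study compared the medial ganglionic eminence (MGE), the ventral forebrain region that produces cortical interneurons, of control and Prdm16 mutant mouse embryos at embryonic day 14 by RNA-seq of total RNA. Controls, labelled WT, were Nkx2.1-Cre; Prdm16+/+; Ai14, and mutants, labelled KO, were Nkx2.1-Cre; Prdm16fl/fl; Ai14, so both groups carried the Cre driver and the Ai14 reporter allele. Each group had 3 libraries, and each library was a pool of 6 eminences from 3 embryos. Nkx2.1-Cre acts in cells of the Nkx2-1 domain, so the floxed allele is not deleted in every cell of the dissected tissue, which also holds vessels and blood. PRDM16 is a zinc-finger chromatin regulator of neural progenitors.

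A cell copies its DNA in steps, each with its own proteins. The origin recognition complex marks start sites, Cdc6 and Cdt1 load the MCM helicase there, and Mcm10, Cdc45 and the GINS complex turn the helicase on. The polymerases then copy the strands, held by the sliding clamp PCNA, which the RFC complex loads. RPA coats the exposed single strands, Fen1 and Lig1 join the lagging-strand fragments, and ribonucleotide reductase, thymidylate synthase and thymidine kinase supply nucleotides. Many of these genes are switched on at the G1/S transition by E2F transcription factors with cyclin E. In the MGE these genes are known as marks of dividing progenitors, and bulk RNA-seq cannot tell more cells in S phase from more RNA per cell.

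Total counts ranged from 33188277 to 55552298 per library. Levels are given as CPM (reads scaled to a common library total) on TMM-scaled library sizes, and changes as log2 fold changes (KO against WT) with their standard error (SE) and a Benjamini-Hochberg adjusted p over all 18079 genes tested in edgeR's quasi-likelihood test, called at 0.05. The labels describe the libraries as separate pools. KO 1 stood apart from KO 2 and KO 3: the second principal component of all genes, with 16.1% of the variance, placed it at -35.0 against 11.6 and 12.4 for KO 2 and KO 3. It had 1.92 CPM of Xist against 721 to 1424 CPM in the other 5 libraries and 239 CPM of Y-linked genes against 0.362 CPM in KO 3, so the pools differed in the sex of their embryos. Prdm16 itself was measured at 55.8, 47.0 and 45.4 CPM in WT 1 to WT 3 and at 53.6, 51.3 and 45.8 CPM in KO 1 to KO 3 (log2 fold change 0.02, SE 0.0897, adjusted p = 0.884). A count per gene includes reads from exons that a Cre deletion leaves in place, so this value does not check the labels. The MGE marker genes Nkx2-1 (647 ± 29.4 CPM in WT and 769 ± 118 CPM in KO, SD, n = 3 each; adjusted p = 0.112), Lhx6 and Lhx8 were abundant in every library. Lhx6 fell by 0.38 and Lhx8 rose by 0.49 on the log2 scale.

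Most of the 50 genes were slightly higher in KO, and few of them passed the test. Of the 50, 7 rose (14%) and 1 fell (2.0%), against 9.72% and 10.5% of all genes tested (20.2% in either direction). The 7 were Gins2, Pcna, Rfc2, Rfc4, Chaf1b, Ccne1 and Ung, and the gene that fell was E2f2. The other 42 did not pass. The log2 fold change was above 0 for 45 of the 50 and had a median of 0.13, where the median over all genes was -0.00. Pola1, Pole, Rrm1, E2f2 and Ccne2 were the 5 genes below 0. At an unadjusted p under 0.05, 21 of the 50 were higher and 1 was lower, against 3289 and 3338 of all 18079 genes tested.

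The changes were small. The range was -0.30 (E2f2) to 0.43 (Gins2), and none of the 50 was past a fold of 1.5 in either direction, against 4.63% of all genes higher and 7.37% lower. For 48 of the 50 the 95% interval of the fold lay wholly within 1.5-fold up or down, which held for 61.7% of all genes. Gins2 and Rpa3 were the exceptions, with upper bounds of 1.56-fold and 1.51-fold. All 3 KO libraries lay above all 3 WT libraries for 10 of the 50 (20.0%), which is close to the 20.3% of all genes, and below them for E2f2 alone (2.0%, against 19.6% of all genes). In either direction the groups were apart for 39.9% of all genes.

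**Figure D1:**
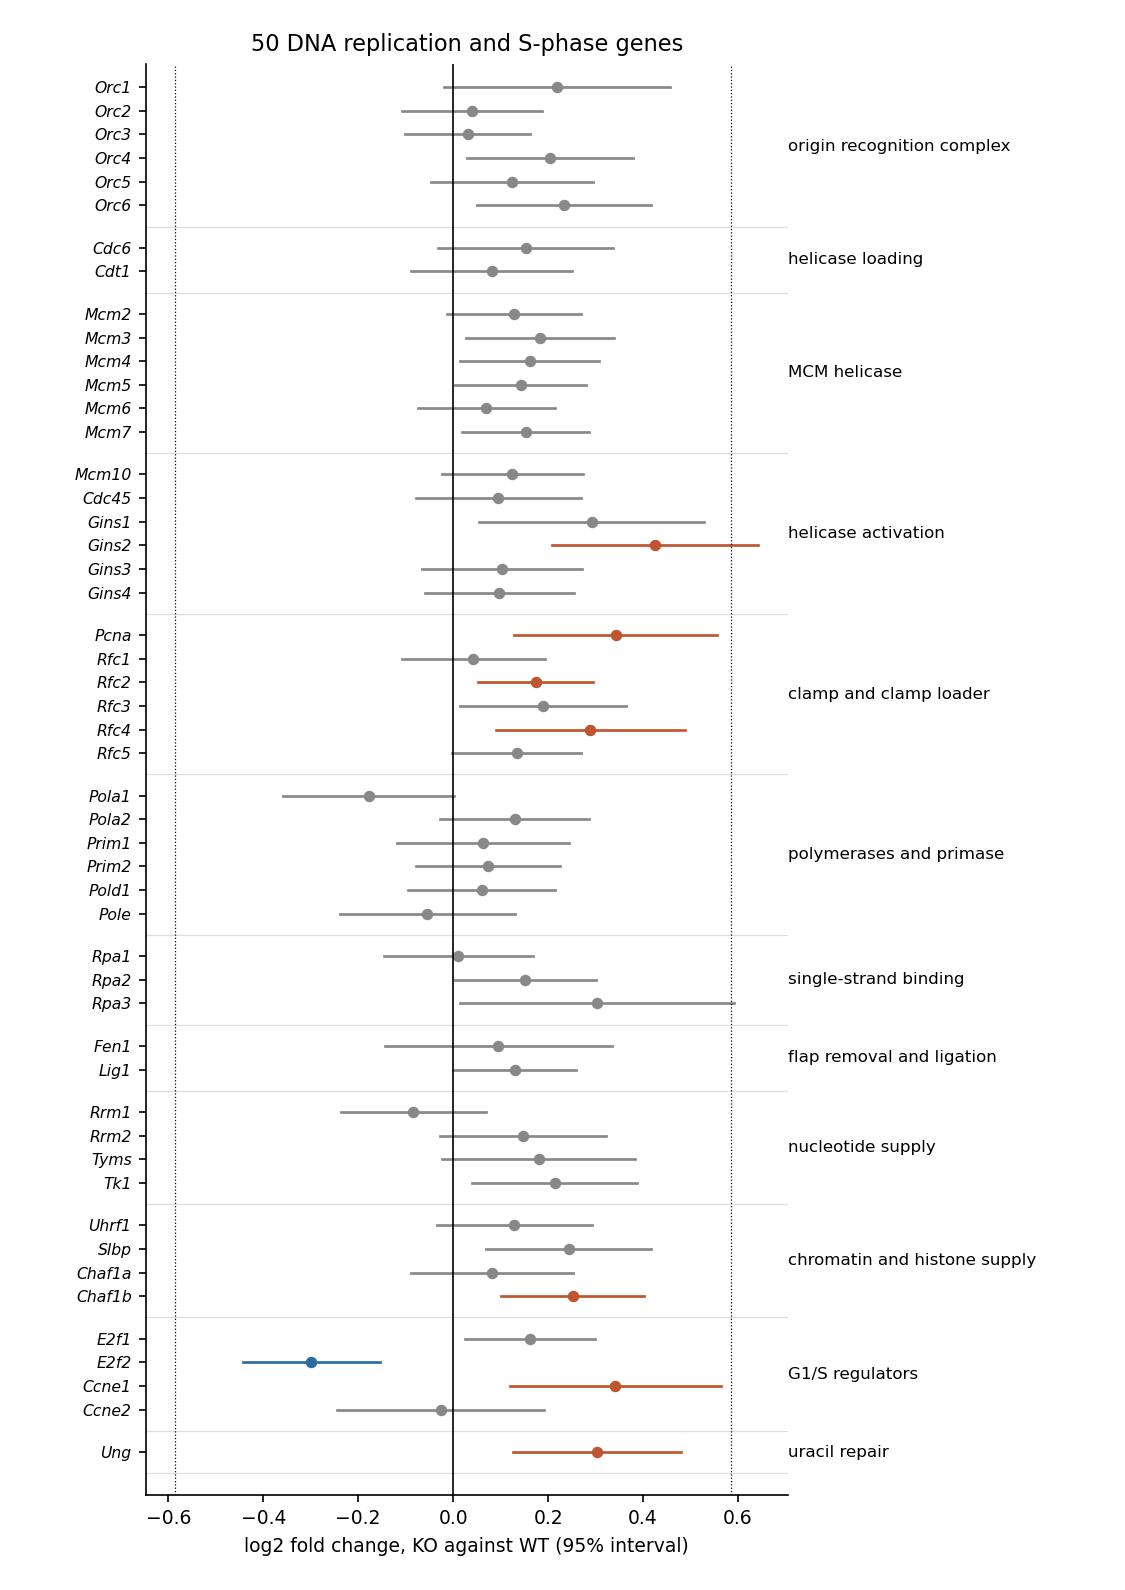
The log2 fold change of each of the 50 genes, KO against WT, with its 95% interval from edgeR (x axis), grouped by role in replication (y axis). Orange marks the 7 genes that rose, blue the 1 that fell and grey the 42 that did not pass. The dotted lines mark 1.5-fold, and every point lies between them.

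The 50 genes together took between 0.382% and 0.451% of the counts of a library. Their CPM summed to 4266, 3791 and 3836 in WT 1 to WT 3 and to 4178, 4521 and 4306 in KO 1 to KO 3, which is 3964 ± 262 in WT and 4335 ± 174 in KO (SD, n = 3 each). The groups overlapped, because WT 1 was above KO 1. WT 1 was the highest of the 3 WT libraries for 46 of the 50 genes (92.0%, against 38.0% of all genes), and KO 1 was the lowest of the 3 KO libraries for 33 (66.0%, against 40.8%). Set against the WT mean of each gene, the median log2 ratio was 0.10 in WT 1 and -0.06 and -0.05 in WT 2 and WT 3. It was 0.08 in KO 1, 0.20 in KO 2 and 0.13 in KO 3. The first principal component of these 50 genes held 75.3% of their variance and placed WT 1 (-0.05) beside KO 1 (-0.04), with WT 2 (-0.98) and WT 3 (-0.88) on 1 side and KO 2 (1.10) and KO 3 (0.84) on the other. The median coefficient of variation of a gene over 3 libraries was 6.74% in WT and 6.39% in KO.

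**Figure D2:**
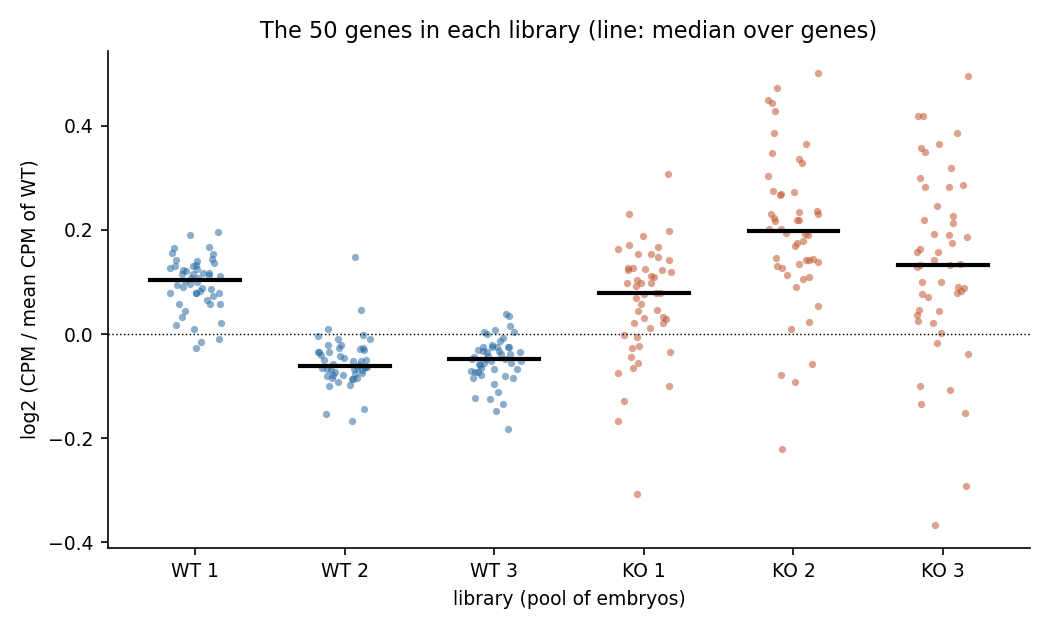
Each point is 1 of the 50 genes in 1 library, as the log2 ratio of its CPM to its mean CPM over the 3 WT libraries (y axis), and the line is the median over genes. The medians of WT 1 and KO 1 are close to each other, between WT 2 and WT 3 below and KO 2 and KO 3 above.

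The count depended on which libraries were used, and it was highest without KO 1. Then 25 of the 50 genes passed as higher and 1 as lower, against 20.6% and 20.9% of all genes, and the median log2 fold change was 0.17. All 7 genes that rose with 6 libraries were among the 25. The direction of each of the 8 called genes was kept when any library was left out. Without WT 2, WT 3, KO 2 or KO 3, however, no gene of the 50 passed as higher, and without WT 1 there were 5. Calls fell over the whole table too. From 1758 genes higher with 6 libraries they went to 482, 464, 584 and 603 in those fits, and to 810 without WT 1.

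The promoters of these genes are shown because E2F factors are known to act on this class of genes. RefSeq windows of 250 bases before to 50 bases after the start site (GRCm38.p6) were at hand for 42 of the 50. The E2F letters TTTCCCGC or TTTGGCGC, searched on both strands, were found in the windows of 12 of these 42 genes (28.6%), against 486 of all 27025 genes with a window (1.8%). Those 27025 genes were not limited to the genes tested here. Per window, 12 of 51 held a match (23.5%), against 1.56% of all 32851 windows. None of the 21 mitosis genes with a window held a match, and 17 of 51 other replication genes did (33.3%). The 12 genes were Orc3, Cdc6, Cdt1, Mcm3, Mcm5, Mcm6, Mcm7, Gins3, Rfc3, Pola1, Pold1 and E2f2. The CCAAT box, also on both strands, was in the windows of 26 of the 42 genes (61.9%), against 41.1% of all genes with a window and 18 of 21 mitosis genes.

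The 150 bases before the start site are printed for 3 genes that hold the E2F letters and for 3 that rose in KO and do not. They run 5′ to 3′ on the strand of the gene, in lower case with the E2F letters, or their reverse complement, in capitals. Mcm6 (chr1:128359706-128359855, minus strand) has the letters 2 times, Cdc6 (chr11:98908001-98908150, plus strand) and Gins3 (chr8:95633409-95633558, plus strand) 1 time each. Pcna (chr2:132253181-132253330, minus strand), Ccne1 (chr7:38107491-38107640, minus strand) and Ung (chr5:114130285-114130434, plus strand) do not have them in these bases.
Mcm6: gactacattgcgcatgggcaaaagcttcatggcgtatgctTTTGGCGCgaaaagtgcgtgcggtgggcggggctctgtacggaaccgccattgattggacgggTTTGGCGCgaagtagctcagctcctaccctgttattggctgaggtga
Cdc6: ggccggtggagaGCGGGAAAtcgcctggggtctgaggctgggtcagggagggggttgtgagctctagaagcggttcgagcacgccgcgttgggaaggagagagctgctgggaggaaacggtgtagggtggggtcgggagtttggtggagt
Gins3: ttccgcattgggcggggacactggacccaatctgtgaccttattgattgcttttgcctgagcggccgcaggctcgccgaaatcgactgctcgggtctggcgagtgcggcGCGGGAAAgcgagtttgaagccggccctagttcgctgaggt
Pcna: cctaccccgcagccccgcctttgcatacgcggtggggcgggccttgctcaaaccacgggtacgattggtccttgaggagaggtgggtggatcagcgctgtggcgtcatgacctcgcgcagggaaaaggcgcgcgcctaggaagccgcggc
Ccne1: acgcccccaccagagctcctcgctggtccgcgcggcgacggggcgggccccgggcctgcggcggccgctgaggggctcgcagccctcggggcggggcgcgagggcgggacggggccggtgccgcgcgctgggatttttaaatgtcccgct
Ung: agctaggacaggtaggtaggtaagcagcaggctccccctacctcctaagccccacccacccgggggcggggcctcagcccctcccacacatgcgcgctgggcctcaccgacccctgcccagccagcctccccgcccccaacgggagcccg
Of the 12 genes with the E2F letters none rose and 1 fell (E2f2, whose match lies 40 to 47 bases after the start), with a median log2 fold change of 0.09. Of the 30 genes with a window and no match 5 rose and none fell, with a median of 0.14. The remaining 2 genes that rose, Gins2 and Rfc2, were among the 8 with no window. Over all genes tested 9.72% rose and 10.5% fell, and genes with and without a match were not compared in a test. A match is only a run of letters, and its absence says only that these letters are not in the window.

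Among the 6 genes of the origin recognition complex, which marks the sites where replication can begin, none passed with 6 libraries in the fit with no correction for gene length. All 6 log2 fold changes were above 0, from 0.03 (Orc3) to 0.23 (Orc6), with a median of 0.16. Orc4, Orc5 and Orc6 passed as higher without KO 1, and Orc4 also with 6 libraries once each library was corrected for a trend of counts on gene length (adjusted p = 0.04). Orc6 was measured at 53.4, 47.4 and 48.0 CPM in WT 1 to WT 3 and at 52.4, 63.9 and 58.8 CPM in KO 1 to KO 3 (log2 fold change 0.23, SE 0.0817, adjusted p = 0.0699; 0.31 and 0.00168 without KO 1). Orc4 stood at 49.6, 51.6 and 48.6 CPM in WT and 51.1, 63.0 and 58.4 CPM in KO (0.20, adjusted p = 0.0907; 0.29 and 0.000753 without KO 1). For both genes KO 1 lay within the WT range and KO 2 and KO 3 above it. Orc5 had 24.3, 23.7 and 22.7 CPM in WT and 23.6, 26.0 and 27.5 CPM in KO, which also overlapped (0.12, adjusted p = 0.268; 0.0372 without KO 1).

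The level of the complex is set beside length here, as CPM per kilobase (kb) of annotated exon, since longer genes give more reads. The exons of all annotated transcripts of a gene were merged, so this length can exceed that of any transcript. Levels per kb of different genes therefore compare only roughly. Orc1, its largest subunit and the 1 known to vary with the cell cycle, had the lowest level of the 50 genes, 2.29 CPM per kb over the 6 libraries, and Orc6 the highest of the complex, 21.9 CPM per kb. Orc1 was measured at 7.22, 8.16 and 6.70 CPM in WT and 8.12, 8.56 and 8.95 CPM in KO, with WT 2 just above KO 1 (log2 fold change 0.22, SE 0.106, adjusted p = 0.167). Orc2 and Orc3 had log2 fold changes of 0.04 and 0.03, and Orc2 shares 1150 exonic bases with Nif3l1 on the other strand. The 2 loading factors, Cdc6 and Cdt1, did not pass with or without KO 1 (0.15, adjusted p = 0.207, and 0.08, adjusted p = 0.472).

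The 6 MCM genes, which encode the ring-shaped replicative helicase, moved little, and none passed with 6 libraries before the length trend was removed; after it Mcm2 passed (adjusted p = 0.0321). Their log2 fold changes lay between 0.07 (Mcm6) and 0.18 (Mcm3), with a median of 0.15, and all 6 intervals were within 1.5-fold. Mcm7 was measured at 283, 254 and 262 CPM in WT 1 to WT 3 and at 287, 304 and 297 CPM in KO 1 to KO 3. It was the only MCM gene with every KO library above every WT library, although the gap between WT 1 and KO 1 was small (log2 fold change 0.15, SE 0.0598, adjusted p = 0.098). Mcm3 had 145.4, 126 and 128 CPM in WT and 145.0, 160.2 and 149 CPM in KO (0.18, adjusted p = 0.0894). Mcm7 and Mcm3 passed as higher without KO 1 (adjusted p = 0.0134 and 0.0243), and Mcm2, Mcm4, Mcm5 and Mcm6 did not. Per kb the 6 subunits, which assemble in equal numbers, stood at 28.1 (Mcm2), 37.9 (Mcm3), 29.5 (Mcm4), 36.1 (Mcm5), 35.1 (Mcm6) and 63.5 CPM per kb (Mcm7). Exons of Mcm7 share 321 bases with Ap4m1 and 64 with Cops6 on the other strand.

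Gins2, a subunit of the GINS complex that activates the helicase, had the largest fold change of the 50 genes. It was measured at 22.5, 18.6 and 18.1 CPM in WT 1 to WT 3 and at 24.4, 27.4 and 27.8 CPM in KO 1 to KO 3, so that the groups did not overlap. The gene rose 1.34-fold (log2 fold change 0.43, SE 0.0971, adjusted p = 0.0172). Its exons share 2758 bases with those of Gse1 on the other strand (log2 fold change -0.35, adjusted p = 0.0528), and reads of the 2 genes cannot be told apart where the counting did not use strand.

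The other subunits of GINS did not pass with 6 libraries. Gins1 had 34.6, 29.5 and 30.6 CPM in WT and 32.5, 43.1 and 40.4 CPM in KO, with KO 1 inside the WT range (log2 fold change 0.29, SE 0.106, adjusted p = 0.0784; 0.41 and 0.000659 without KO 1). Gins4 had 36.8, 35.8 and 35.4 CPM in WT and 35.1, 40.7 and 39.7 CPM in KO (0.10, adjusted p = 0.347; 0.0272 without KO 1). Here KO 1 was the lowest of all 6 libraries. Gins3, with the E2F letters in its promoter, had a log2 fold change of 0.10 (adjusted p = 0.352) although its KO libraries, 14.8 to 15.3 CPM, all lay above its WT libraries, 13.5 to 14.6 CPM. Per kb Gins1 and Gins4 stood at 23.2 and 27.6 CPM per kb, and Gins2 and Gins3 at 5.65 and 5.36 CPM per kb. The value of Gins2 depends on its merged exonic length of 4097 bases, of which 2758 are shared with Gse1. Mcm10 and Cdc45, which join the helicase at activation, had log2 fold changes of 0.12 and 0.10 and did not pass with or without KO 1, except that Mcm10 passed with 6 libraries after removal of the length trend (adjusted p = 0.0422).

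The sliding clamp and its loader held 3 of the 7 genes that rose. With the length trend removed only Rfc2 of the 3 still passed. Pcna, the clamp that tethers polymerases to DNA and the most abundant of the 50 genes per length (119 CPM per kb over the 6 libraries), was measured at 283.5, 227 and 247 CPM in WT 1 to WT 3. In KO 1 to KO 3 it stood at 283.2, 339.7 and 337 CPM. KO 1 was just below WT 1, so the groups overlapped. Pcna rose 1.27-fold (log2 fold change 0.34, SE 0.0957, adjusted p = 0.0341).

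Pcna has annotated processed copies, and reads of a gene and of such a copy can be hard to tell apart. The pseudogene Pcna-ps2 on chromosome 19 had 293, 526 and 645 reads in WT 1 to WT 3 and 22, 38 and 46 reads in KO 1 to KO 3, a log2 fold change of -4.04 (SE 0.454, adjusted p = 0.00221). It made up 2.19%, 6.48% and 6.38% of the reads of Pcna and Pcna-ps2 together in WT and 0.175%, 0.306% and 0.247% in KO. With both summed, the level was 289.8, 242 and 263 CPM in WT and 284, 341 and 338 CPM in KO, and the ratio of the group means was 1.21. The second annotated copy, Pcna-ps1, had 0 reads in every library. Pcna-ps2 fell in KO while Pcna rose, and the source of the Pcna-ps2 reads was not tested.

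Rfc2 and Rfc4, subunits of the clamp loader, rose by less. Rfc2 was measured at 89.9, 86.3 and 91.7 CPM in WT and at 96.5, 104 and 102 CPM in KO, with no overlap, and rose 1.13-fold (log2 fold change 0.17, SE 0.0542, adjusted p = 0.0488). Rfc4 was at 36.9, 31.9 and 33.7 CPM in WT and at 36.7, 44.6 and 44.0 CPM in KO and rose 1.22-fold (0.29, SE 0.0891, adjusted p = 0.047). As with Pcna, KO 1 was level with WT 1. Rfc2 shares 952 exonic bases with Lat2 on the other strand, which had at most 4.35 CPM in any library. Rfc4 shares 194 with Eif4a2, which stood at 382 to 411 CPM.

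Rfc3 and Rfc5, also subunits of the loader, passed without KO 1 and not with 6 libraries. Rfc3 had 68.8, 66.8 and 67.9 CPM in WT and 67.5, 82.0 and 82.7 CPM in KO (log2 fold change 0.19, adjusted p = 0.111; 0.28 and 0.000278 without KO 1). Rfc5 had 45.7, 42.6 and 42.6 CPM in WT and 46.0, 49.8 and 47.8 CPM in KO (0.13, adjusted p = 0.14; 0.0254 without KO 1). KO 1 lay within the WT range for Rfc3 and just above it for Rfc5. Rfc1, the large subunit, had a log2 fold change of 0.04 (adjusted p = 0.685).

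**Figure D3:**
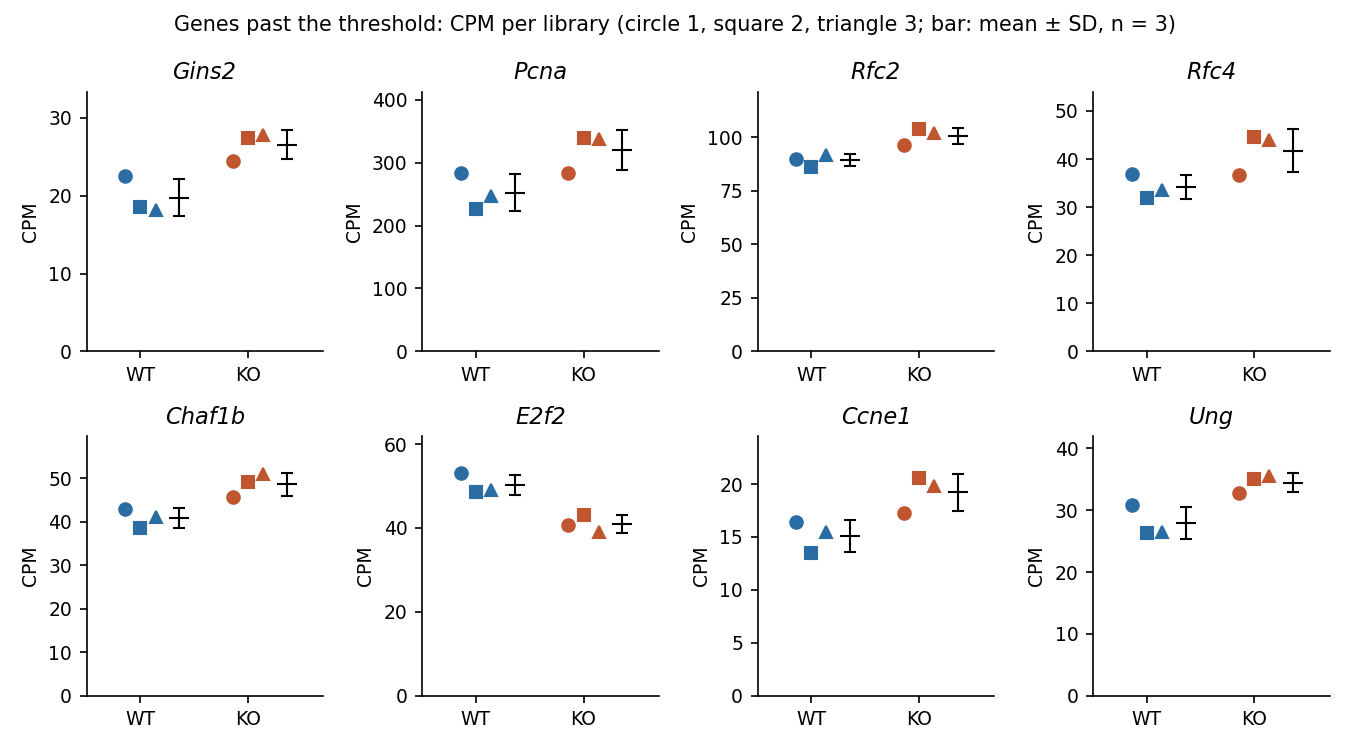
CPM of the 8 genes that passed the test in each of the 6 libraries (y axis, from 0), with the mean ± SD of each group (n = 3). Circles are libraries 1, squares 2 and triangles 3. For Pcna and Rfc4 the KO 1 circle lies level with the WT 1 circle, and for E2f2 all 3 KO libraries lie below all 3 WT libraries.

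None of the 6 polymerase and primase genes passed with 6 libraries. Their median log2 fold change of 0.06 was the lowest of any role with 3 or more genes in that fit. The median exonic length of the 6 genes was 7116 bases. With the length trend removed their median was 0.08, and that of the 4 regulators of the G1/S transition was lowest, at 0.03. Pola1, the catalytic subunit of polymerase alpha, had a log2 fold change of -0.18 (SE 0.0804, adjusted p = 0.14), and Pole, that of polymerase epsilon, -0.05 (adjusted p = 0.673). Pold1, that of polymerase delta, had 0.06 (adjusted p = 0.568), and the primase genes Prim1 and Prim2 had 0.06 and 0.07. Pola2, the regulatory partner of Pola1, was at 47.4, 42.6 and 43.6 CPM in WT and at 45.5, 52.0 and 48.8 CPM in KO (0.13, adjusted p = 0.209; 0.0257 without KO 1). Pola1 and Pola2 stood at 5.29 and 5.63 CPM per kb, values that depend on their merged exonic lengths of 8813 and 8294 bases.

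The 3 genes of RPA, the protein that coats single-stranded DNA, differed in how far KO 1 lay from KO 2 and KO 3. Rpa3 was measured at 41.9, 42.3 and 42.8 CPM in WT 1 to WT 3 and at 40.2, 59.9 and 56.6 CPM in KO 1 to KO 3. The WT libraries were nearly equal, KO 1 was the lowest of the 6, and KO 2 and KO 3 were far above the rest. With 6 libraries Rpa3 did not pass (log2 fold change 0.30, SE 0.128, adjusted p = 0.122). Without KO 1 it had the smallest adjusted p of the 50 genes (0.47, 1.46e-05). Rpa3 is a short gene, with 1136 exonic bases. With 6 libraries and the length trend removed, its log2 fold change was 0.17 (adjusted p = 0.247). Rpa2 was at 58.9, 55.4 and 55.7 CPM in WT and at 57.8, 66.5 and 64.7 CPM in KO (0.15, adjusted p = 0.126; 0.00373 without KO 1). Rpa1, the largest subunit, had a log2 fold change of 0.01 (adjusted p = 0.928).

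Fen1 and Lig1, which trim and join the fragments of the lagging strand, did not pass. Lig1 was at 160.0, 145 and 150.1 CPM in WT and at 165, 171.5 and 161 CPM in KO, so that all KO libraries were above all WT libraries by a narrow margin (log2 fold change 0.13, SE 0.0576, adjusted p = 0.135; 0.0481 without KO 1). Fen1 had a log2 fold change of 0.09 (adjusted p = 0.556), and of its 2422 exonic bases 1909 are shared with the antisense gene Gm10143, at 1.24 to 1.96 CPM.

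The 4 genes of nucleotide supply did not pass with 6 libraries. Rrm1 and Rrm2 encode the subunits of ribonucleotide reductase. Rrm2, which is limiting in S phase, was at 286, 245 and 253 CPM in WT and at 266, 308 and 295 CPM in KO (log2 fold change 0.15, adjusted p = 0.202; 0.0254 without KO 1), and Rrm1 had a log2 fold change of -0.08 (adjusted p = 0.402). Thymidylate synthase, Tyms, was at 59.8, 51.0 and 50.2 CPM in WT and at 54.1, 66.2 and 62.2 CPM in KO (0.18, adjusted p = 0.182; 0.022 without KO 1). Thymidine kinase, Tk1, was at 49.8, 43.5 and 44.4 CPM in WT and at 48.4, 55.5 and 55.8 CPM in KO (0.21, adjusted p = 0.0781; 0.00264 without KO 1). In Rrm2, Tyms and Tk1 alike KO 1 lay below WT 1 while KO 2 and KO 3 lay above all WT libraries.

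Of the 4 genes of chromatin and histone supply, Chaf1b rose. It encodes a subunit of CAF-1, which places new histones behind the fork, and was measured at 42.9, 38.5 and 41.0 CPM in WT and at 45.7, 49.2 and 50.9 CPM in KO, with no overlap. The change was 1.19-fold (log2 fold change 0.25, SE 0.0672, adjusted p = 0.0296). Its partner Chaf1a had a log2 fold change of 0.08 (adjusted p = 0.466), and 4648 of its exonic bases are shared with Ubxn6 on the other strand. Slbp, which binds the stem-loop of replication-dependent histone mRNAs, was at 87.1, 80.7 and 79.0 CPM in WT and at 86.3, 105 and 101 CPM in KO and missed the threshold (0.24, SE 0.0777, adjusted p = 0.0523; 0.000271 without KO 1 and 0.0307 with the length trend removed). Uhrf1, which keeps DNA methylation on new strands, had a log2 fold change of 0.13 (adjusted p = 0.229).

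The 4 regulators of the G1/S transition went in different directions. Ccne1, which encodes cyclin E1, was measured at 16.4, 13.5 and 15.5 CPM in WT and at 17.2, 20.6 and 19.8 CPM in KO, with no overlap, and rose 1.27-fold (log2 fold change 0.34, SE 0.0996, adjusted p = 0.0393). Ccne2, for cyclin E2, had a log2 fold change of -0.03 (SE 0.0976, adjusted p = 0.875), but it shares 609 exonic bases with Ints8 on the other strand, which rose by 0.24. E2f2, an activating E2F factor, was at 53.1, 48.5 and 49.2 CPM in WT and at 40.6, 43.1 and 39.0 CPM in KO. All 3 KO libraries lay below all 3 WT libraries, and the gene was 1.23-fold lower (-0.30, SE 0.0648, adjusted p = 0.0145), the smallest adjusted p of the 50 genes with 6 libraries. E2f1, the best known activating E2F, was at 47.6, 43.8 and 43.9 CPM in WT and at 48.3, 51.8 and 51.3 CPM in KO and did not pass (0.16, SE 0.0613, adjusted p = 0.0884; 0.0107 without KO 1).

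As ratios of levels per kb, E2f2 stood at 0.720, 0.716 and 0.724 of E2f1 in WT 1 to WT 3 and at 0.543, 0.538 and 0.491 in KO 1 to KO 3. These ratios are a description of each library and were not tested. They were nearly the same in the 3 WT libraries and lower in every KO library, KO 1 included. The ratio of Ccne2 to Ccne1 was 1.42, 1.56 and 1.23 in WT and 1.12, 1.13 and 0.997 in KO.

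Ung, the uracil DNA glycosylase that removes uracil from new DNA, was measured at 30.8, 26.3 and 26.5 CPM in WT and at 32.7, 35.1 and 35.6 CPM in KO. The groups did not overlap, and the gene rose 1.23-fold (log2 fold change 0.30, SE 0.0788, adjusted p = 0.027).

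**Figure D4:**
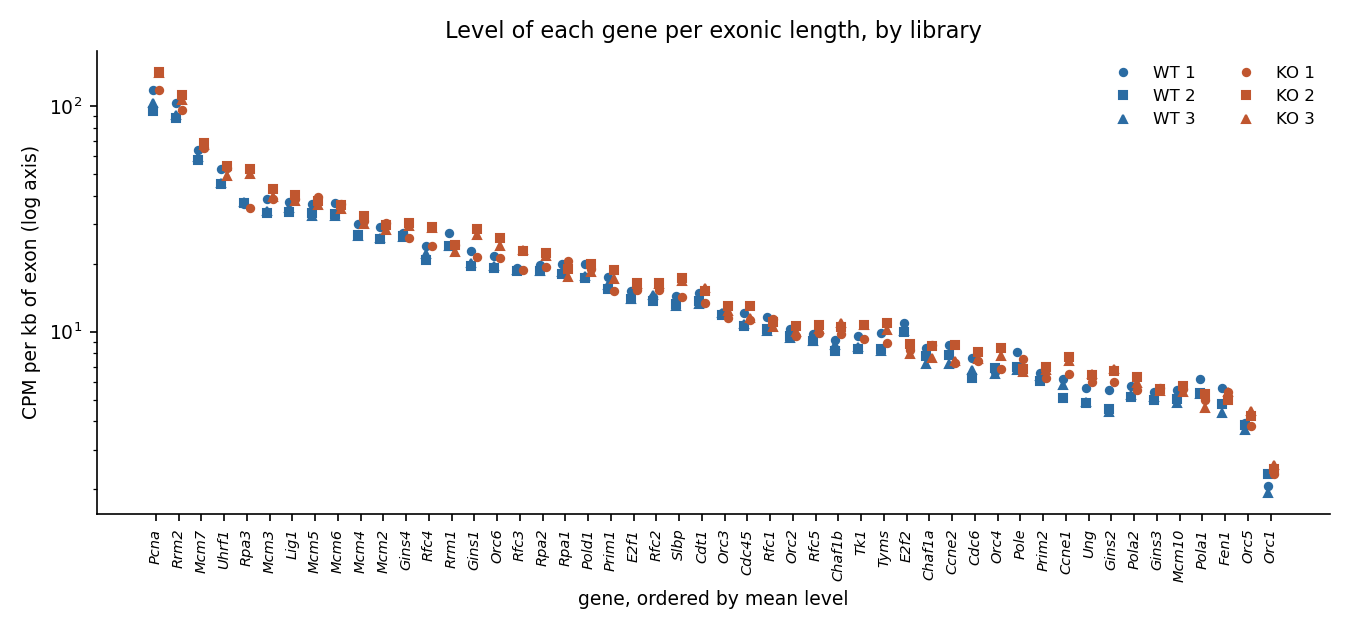
Level of each of the 50 genes in each library as CPM per kb of annotated exon, merged over transcripts (y axis, log scale), ordered by the mean over the 6 libraries. The levels run from 119 CPM per kb for Pcna to 2.29 CPM per kb for Orc1, and the libraries of a gene lie close together compared with the spread between genes.

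Gene length moved with the comparison. Over all genes tested, split by exonic length into 5 equal classes, the median log2 fold change went from 0.13 in the shortest class through 0.08, 0.02 and -0.04 to -0.12 in the longest. The trend was steepest in KO 2 and KO 3, whose median deviation from the mean of 6 libraries was 0.10 and 0.13 in the shortest class and -0.09 and -0.12 in the longest. The WT libraries ran the other way, from -0.06, -0.07 and -0.04 to 0.07, 0.07 and 0.04. KO 1 ran with WT but less steeply, from -0.02 to 0.02, so it lay between WT and the other KO libraries in both classes. In the same classes the medians of the replication genes were 0.29, 0.15, 0.15, 0.13 and 0.08, over 4, 8, 14, 17 and 7 genes. They were above the median of all genes in each class. Across the 50 genes the rank correlation of log2 fold change with exonic length was -0.38, a description of genes that share their libraries.

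With the trend of each library on exonic length removed, 8 of the 50 rose and 1 fell, against 10.2% and 9.39% of all genes, and the median was 0.14. Of the 50 log2 fold changes, 46 were then above 0. Pole and Rrm1 moved above 0 (0.09 and 0.06), and Gins4 moved below it (-0.03). Gins2, Rfc2, Chaf1b and Ung rose in both fits and E2f2 fell in both. Pcna (adjusted p = 0.0521), Rfc4 (0.134) and Ccne1 (0.0575) did not pass after the removal, and Orc4 (0.04), Mcm2 (0.0321), Mcm10 (0.0422) and Slbp (0.0307) did. With KO 1 also left out 25 rose and 1 fell, against 19.8% and 17.8% of all genes.

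**Figure D5:**
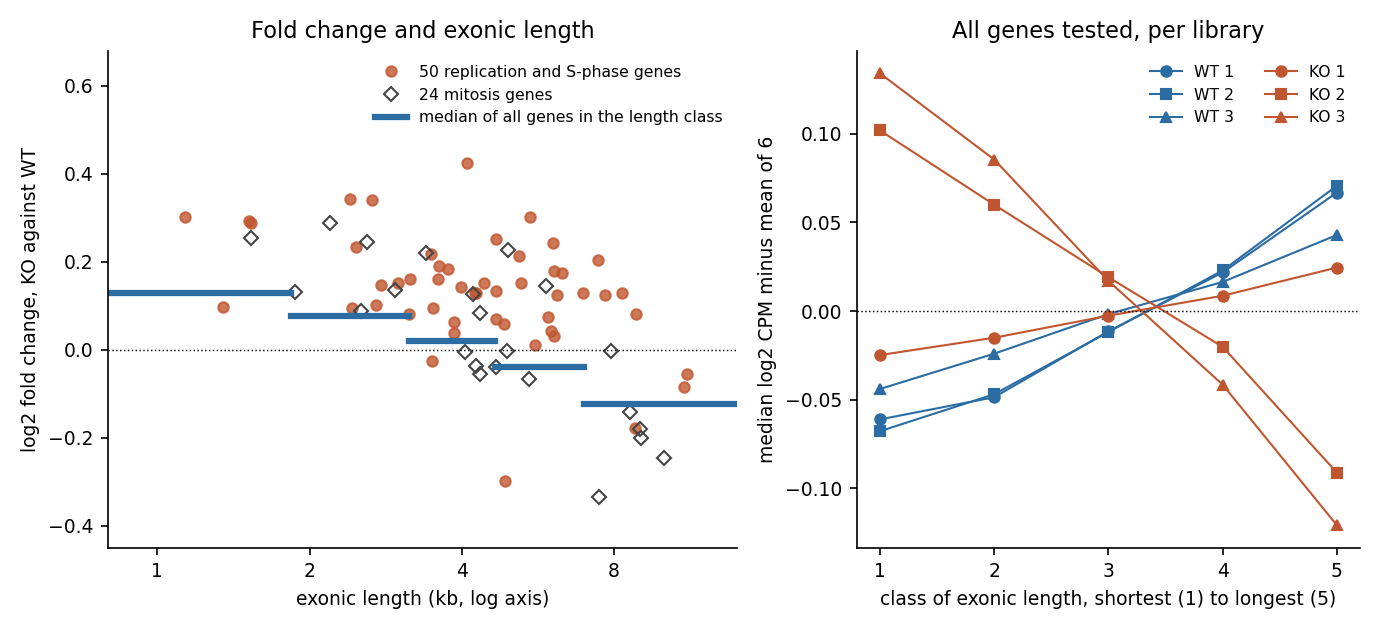
Left, log2 fold change of the 50 replication and S-phase genes (circles) and 24 mitosis genes (diamonds) against exonic length in kb (log axis), with the median of all genes in each length class as a bar. Right, the median deviation of all genes in each library over the length classes, which runs from above 0 to below 0 in KO 2 and KO 3, the other way in the WT libraries, and less steeply that way in KO 1.

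The wider replication machinery was read from a list of 70 other genes (kinases and checkpoint factors, further polymerase subunits, nucleotide enzymes, E2F and pocket proteins). Of these 12 rose (17.1%, against 9.72% of all genes) and 2 fell (2.86%, against 10.5%), with a median log2 fold change of 0.10. The rise with the smallest p was that of E2f6, a repressing E2F, at 51.4, 52.4 and 53.0 CPM in WT and 71.0, 72.4 and 74.7 CPM in KO (log2 fold change 0.48, SE 0.0521, adjusted p = 0.00055). KO 1 was as high as the other KO libraries here. Cdc25a, the phosphatase that activates Cdk2, rose by 0.32 (adjusted p = 0.00833) and E2f5, another repressing E2F, by 0.50 (adjusted p = 0.0168). Pole4, Rnaseh2c (a subunit of RNase H2), Dbf4 (the activator of the Cdc7 kinase), Dut (which clears dUTP) and Pold2 (polymerase delta) rose by 0.24 to 0.38. Of these 8, Dut and Pold2 did not pass with the length trend removed (adjusted p = 0.0533 and 0.155).

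The 2 genes that fell were Cdca7 and Rbl2. Cdca7, a partner of the chromatin remodeller Hells, was at 319, 291 and 287 CPM in WT and at 203, 208 and 197 CPM in KO (log2 fold change -0.56, SE 0.0598, adjusted p = 0.000473). Rbl2, the pocket protein p130 that holds resting cells in G0, fell by 0.25 (adjusted p = 0.0243). Its call was lost with the length trend removed (adjusted p = 0.0643). Without KO 1, 28 of the 70 were higher (40.0%) and 9 lower (12.9%), against 20.6% and 20.9% of all genes.

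Mitosis genes, which mark a later phase of the cycle, had a median log2 fold change near 0 with 6 libraries. Of 24, only Plk1, a mitotic kinase, rose (log2 fold change 0.29, adjusted p = 0.0345) and only Kif11, a spindle motor, fell (-0.33, adjusted p = 0.0113), and the median was -0.00. Of the 24, 11 were above 0, compared with 45 of the 50 replication genes; the difference between the lists was not tested. Without KO 1, 10 of the 24 were higher (41.7%) and 2 lower (8.33%), against 20.6% and 20.9% of all genes, with a median of 0.05, and without WT 1 the median was 0.08. Like the replication genes, all 24 were highest in WT 1 among the WT libraries. Their log2 fold changes followed exonic length with a rank correlation of -0.76, and the call of Plk1 was lost with the length trend removed (adjusted p = 0.0637).

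Markers of several cell types moved between the same groups. The counts of every marker list are to be read beside the 9.72% of all genes tested that rose and the 10.5% that fell. Of 15 radial glia markers, the progenitors in which replication genes are active, 11 rose and 1 fell, and their summed level was 2609 to 2779 CPM in WT and 3618 to 4003 CPM in KO. Sox9, Ednrb and Nes were 1.55-fold, 1.49-fold and 1.59-fold higher. Of 15 markers of postmitotic neurons none rose and 6 fell, with sums of 7599 to 8040 CPM in WT and 6694 to 7249 CPM in KO. Syt4, Gad1 and Nrxn3 fell by 0.79, 0.36 and 0.44 on the log2 scale. Unlike the replication genes, KO 1 lay on the KO side of both sums.

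Among cells from outside the lineage, 4 of 11 tested red blood cell markers rose and 2 fell, with sums of 663 to 725 CPM in WT and 1008 to 1608 CPM in KO. None of 10 brain endothelium markers rose and 3 fell (315 to 320 CPM in WT, 263 to 308 CPM in KO), and none of 10 microglia markers rose and 2 fell (39.6 to 42.1 CPM and 31.0 to 37.0 CPM). Of 15 MGE markers 5 rose and 4 fell, with sums of 4633 to 4923 CPM in WT and 4239 to 4808 CPM in KO. Of 15 lateral and caudal eminence markers 3 rose and 9 fell, although their sum was 1084 to 1242 CPM in WT and 1247 to 1319 CPM in KO. Of 12 cortical excitatory markers 6 rose and 1 fell, Bcl11b, and their sum was 580.1 to 637 CPM in WT and 406 to 479 CPM in KO. No listed marker was at 0 in all 6 libraries. The part of these cell types, of the dissection and of embryo sex in the replication gene values was not tested.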

How the data were processed

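The input of every test here was the table of raw counts per gene that the authors deposited for the 6 libraries. Its reads were handled with the build GRCm38, and the tools named, per the submitters' processing notes, are STAR 2.5.2b, Trimmomatic 0.36, DESeq2, Subread 1.5.2 and featureCounts. Neither the annotation release nor the strand setting is given in the sources used here. A normalized table was not used; 2 of its value columns were not mapped to a sample.

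GENCODE M21 held 49056 of the 49315 gene IDs (259 were not found) and gave symbols and exonic lengths, with exons merged over all transcripts of a gene. After filterByExpr with a minimum count of 10 and a minimum total of 15, genes were tested with edgeR 4.0.16 in R 4.3.3: TMM factors, robust quasi-likelihood test, Benjamini-Hochberg adjustment at 0.05. The biological coefficient of variation was 9.52%. The procedure was tested on simulated data. Principal components used log2 CPM (prior count 2). Each SE was derived as the log2 fold change divided by the root of the F statistic. Alternatives included DESeq2 1.42.0 and voom (limma 3.58.1). The removal of the exonic length trend (lowess, span 0.3, as offsets) was chosen after seeing the data.

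The members and lists were chosen with earlier results of these data known, so no list was tested as a set. Per library values are printed for members past the threshold, for those past it only without KO 1, and for the highest and lowest per kb; of other lists, up to 8 called genes per direction, and up to 3 per marker list plus Nkx2-1, Lhx6 and Lhx8, by smallest p. Sex-linked genes were added to describe the libraries.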

Additional observations from a re-analysis of the deposited data

How the results depend on the processing

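No call among the 50 genes reversed its direction in any of the 19 alternatives. Scaling moved the median of all genes by less than 0.1. Counts are given as higher and lower. For the 50 replication genes they were 7 and 1; they were 14 higher with no low-count filter, 0 and 0 at an adjusted p of 0.01, and 15 higher at 0.1. For the 70 related genes, 12 and 2, they were 2 and 1 at 0.01 and 4 lower at 0.1. For mitosis genes, 1 and 1, they were 5 and 2 with no filter, 0 and 0 at 0.01, 3 and 3 at 0.1, and 2 lower with DESeq2 and with library size alone. For all genes, 1758 and 1897, they were 2286 and 2077 with no filter, 360 and 583 at 0.01 and 2732 higher at 0.1.

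With the exonic length trend removed, an alternative chosen after seeing the data, 1 related gene was lower and 0 mitosis genes were higher. With KO 1 also left out, 25 replication genes, 34 related genes (5 lower), 7 mitosis genes and 3597 of all genes (3224 lower) were higher.

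Leaving out each library in turn gave 0 to 25 higher and 0 to 1 lower replication genes, 1 to 28 and 1 to 9 related genes, 0 to 10 and 1 to 2 mitosis genes, and 464 to 3752 and 727 to 3804 of all genes. The highest counts were without KO 1, and the cause was not tested. Of the 8 calls, E2f2 was kept in 15 of 19 alternatives and lost without WT 1, without WT 3, without KO 3 and at 0.01. Gins2, Chaf1b and Ung were kept in 13, Pcna in 12, Ccne1 in 11, Rfc2 in 10 and Rfc4 in 8.

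The labels do not say that the replicate numbers pair the pools. Correlations of same-numbered deviations were -0.08, -0.12 and 0.03, which with 3 libraries per group cannot decide whether the pools were paired. With the number as a block, 0 and 1 replication genes, 3 and 1 related genes, 0 higher mitosis genes, and 862 and 1219 of all genes passed. The lowest count of any of the 50 genes was 257 reads, and the SE of their log2 fold changes ran from 0.0542 to 0.128.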
